A study of Mus musculus with 6 samples.

Results

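The genes that mark the cell types of the mature conducting airway were followed in embryonic mouse lungs with and without epithelial *Yap*. Members were taken by name from the deposited table of all loci, and each of the 10 genes had exactly 1 locus among 24402. They are the basal cell markers *Trp63*, *Krt5*, *Krt14* and *Krt15*, the club cell markers *Scgb1a1*, *Scgb3a2* and *Cyp2f2*, the ciliated cell regulator *Foxj1*, and the goblet cell regulators *Spdef* and *Foxa3*. RNA came from lungs of wild-type C57BL/6 embryos and of littermates with the genotype Yap-flox/flox; Shh-Cre/+ (*Yap* mutants), 3 libraries of either genotype, all collected at 12.5 *dpc*. In the mutants Cre is made from the *Shh* locus, so floxed *Yap* is removed from the epithelium and not from the mesenchyme, and 1 copy of *Shh* itself is interrupted. The labels do not say whether a library holds 1 embryo or several. The deposited table gives 1 FPKM value (fragments scaled to transcript length and to the mapped fragments of the library) for each genotype, summarised by the authors over its 3 libraries. The spread between libraries and the depth of each library are therefore unknown here, no test was made, and each difference below is a description with no replicate check.

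The airway is lined by a pseudostratified epithelium. Basal cells lie against the basement membrane and serve as stem cells. Club cells secrete secretoglobins and break down foreign compounds through cytochrome P450 enzymes, ciliated cells move mucus with motile cilia, and goblet cells make the mucus. These cell types take shape later in gestation or after birth, and at the branching stage most airway epithelium consists of *Sox2*-expressing proximal and *Sox9*-expressing distal progenitors.

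A few facts of the samples bear on what follows. *Nkx2-1*, the defining transcription factor of lung epithelium, was listed at 61.9 FPKM in control and 35.9 FPKM in mutant lungs, and *Epcam* at 74.9 and 55.6 FPKM. *Yap1* was listed at 76.1 and 65.6 FPKM over its whole locus, a value that includes the mesenchyme and does not by itself check the deletion. *Shh* was listed at 15.6 and 2.31 FPKM. A list of 23 general epithelial genes had a median log2 difference (mutant minus control) of -0.56 over its 22 detected genes, with 19 lower and 3 higher. Its most abundant genes besides *Epcam* were *Cldn6*, a claudin of embryonic epithelium (98.0 and 64.7 FPKM), and *Spint2*, a protease inhibitor gene (82.2 and 77.6 FPKM). In a heart muscle list of 9 genes, *Tnni3* shares its locus with *Dnaaf3* and has a joint value. All 9 were at least 2-fold higher in the mutant value, beside 2.74% of all detected loci with a ratio. Their summed level was 120.1 FPKM in control and 884.1 FPKM in mutant lungs. The most abundant were the atrial myosin light chains *Myl7* (39.3 and 305.9 FPKM) and *Myl4* (21.3 and 210.3 FPKM) and the cardiac actin *Actc1* (37.98 and 96.1 FPKM). Of 4 Y-linked genes, none was above 0.0163 FPKM in control and all were at 4.61 FPKM or more in mutant lungs. The labels give neither the sex of the embryos nor how the lungs were dissected. In the differences below, genotype therefore cannot be told apart from sex or from heart tissue left on the lungs.

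Most of the 10 airway markers were under 1 FPKM in both genotypes at this stage. Counting 1 FPKM or more in at least 1 genotype as detected, 4 of the 10 genes were detected, *Krt14*, *Krt15*, *Spdef* and *Foxa3*, beside 53.5% of all loci. None (0) of the 10 reached 1 FPKM in both genotypes. *Krt15* was detected in control lungs only, as were 1.18% of all loci, and *Krt14*, *Spdef* and *Foxa3* were detected in mutant lungs only, as were 1.75% of all loci. The detected value closest to the threshold was that of *Spdef*, 1.25 FPKM in mutant lungs. The highest value of an undetected gene was that of *Trp63*, 0.459 FPKM in mutant lungs. Summed over the 10 genes, the level was 4.09 FPKM in control and 7.42 FPKM in mutant lungs.

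**Figure D1:**
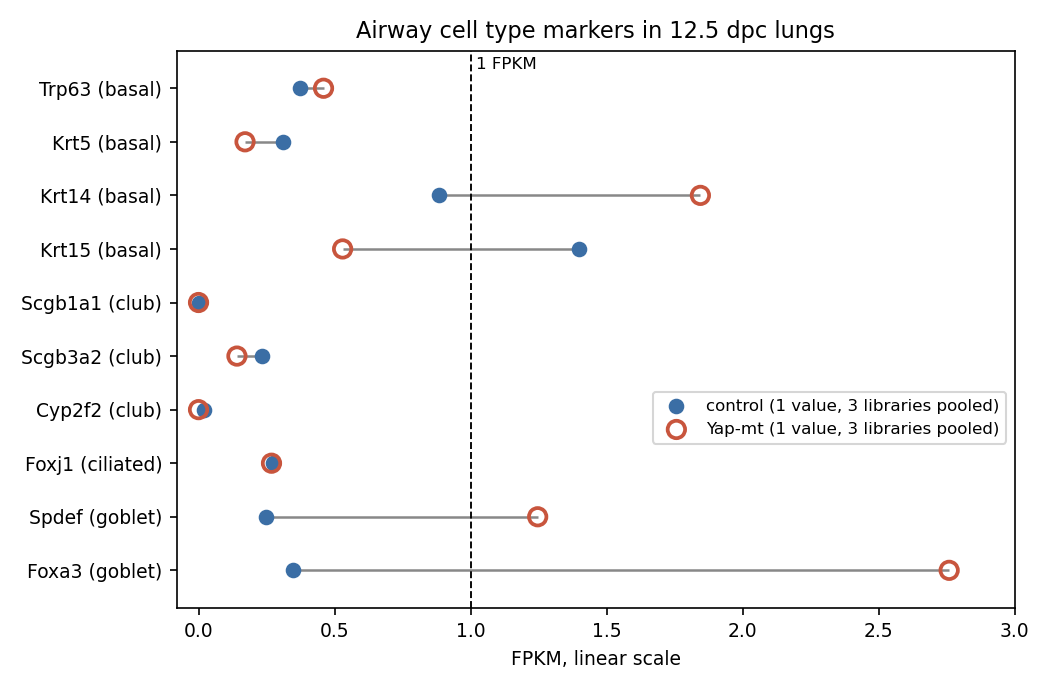
FPKM of the 10 markers on a linear axis, with 1 value per genotype (filled, control; open, *Yap* mutant) and a dashed line at 1 FPKM. There are no error bars because the libraries of a genotype were summarised before deposit. *Foxa3* spans the widest interval, from 0.348 to 2.76 FPKM, and 6 genes stay left of the line in both genotypes.

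Each of the 4 detected genes differed by 2-fold or more, *Krt15* being lower and the other 3 higher in mutant lungs, beside 4.44% of the 13040 loci that were detected and above 0 in both genotypes. Among these loci, 1.7% were at least 2-fold lower and 2.74% at least 2-fold higher, and the median log2 difference was -0.01. Large ratios were more frequent among weakly expressed loci. Of 2115 loci whose higher value lay between 1 and 3 FPKM, the range that holds all 4 detected markers, 5.11% were at least 2-fold lower and 8.27% at least 2-fold higher. The 4 genes passed the detection threshold only through the genotype in which they were higher, so a sizeable ratio was to be found among them by construction, and their count of 4 supports nothing beyond their values. RNA came from whole lungs, where fewer cells of a type and less RNA per cell cannot be told apart.

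Basal cell markers pointed in both directions. *Trp63* encodes the p53-related transcription factor on which basal cells depend. It lies on chromosome 16 (25683765 to 25892088, mm10), and was listed at 0.375 FPKM in control and 0.459 FPKM in mutant lungs. Both values are under 1 FPKM, and no ratio is given for it. Its relative *Trp53* was listed at 110.1 and 107.0 FPKM.

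*Krt5* encodes the type II keratin that pairs with keratin 14 in basal cells, and was also undetected. On chromosome 15 (101707070 to 101712891), it was listed at 0.312 FPKM in control and at 0.171 FPKM in mutant lungs.

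*Krt14*, the type I partner of *Krt5*, lies on chromosome 11 (100203162 to 100207510). It was listed at 0.884 FPKM in control and at 1.84 FPKM in mutant lungs, a ratio of 2.09 and a log2 difference of 1.06. The difference is close to the 2-fold mark, and with 0.1 FPKM added to both values the log2 difference was 0.98. Keratin genes are alike in sequence, and 14.4% of the 50-base stretches of the *Krt14* transcript also occur in transcripts of other genes, most of them in *Krt16*. *Krt16* itself was listed at 0 in both genotypes.

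*Krt15*, another type I keratin of basal cells, lies in the same cluster on chromosome 11 (100131759 to 100135949) and differed in the other direction. It was listed at 1.40 FPKM in control and at 0.530 FPKM in mutant lungs, 2.64-fold lower, with a log2 difference of -1.40. Of its 50-base stretches, 0.666% occur in another gene's transcripts. Relative to the median of the general epithelial list, the log2 difference of *Krt15* was -0.84, which is less than 2-fold, and that of *Krt14* was 1.62.

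Over all 50 loci named as keratins, 21 were listed at 0 in both genotypes and 8 were detected, 6 at a lower and 2 at a higher value in mutant lungs. The abundant ones were the keratins of simple epithelium, and these were lower without reaching 2-fold. *Krt8* was listed at 33.5 FPKM in control and at 21.6 FPKM in mutant lungs, *Krt18* 29.8 and 17.1 FPKM, and *Krt19* 12.6 and 8.97 FPKM. *Krt7*, named here after its values were seen, had 31.7 and 17.1 FPKM. The level of *Krt15* in control lungs was thus far below that of the simple keratins. Besides *Krt14*, the other higher keratin was *Krt23*, with 0.698 and 1.59 FPKM, also named after its values were seen.

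A wider list of 17 genes used as basal cell markers was led by genes that other lung cells express too. Of these 17, 10 were detected, 6 lower and 4 higher in mutant lungs, with a median log2 difference of -0.20. Mesenchyme also expresses *Snai2*, a zinc finger repressor, listed at 93.6 and 81.1 FPKM. *Itga6*, a laminin-binding integrin subunit, had 14.8 and 19.1 FPKM, and *Cdh3*, P-cadherin, had 17.2 and 11.9 FPKM. Smaller values were listed for *Ngfr*, a neurotrophin receptor (7.396 and 5.73 FPKM), and *Pdpn*, a membrane mucoprotein (7.17 and 6.27 FPKM). These 5 genes were all within 2-fold.

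In the basal list, 2 of the 10 detected genes were at least 2-fold lower and 2 at least 2-fold higher, beside 1.7% and 2.74% of all loci with a ratio. Besides *Krt15* and *Krt14*, each at 1 FPKM or more in 1 genotype only, they were *Icam1* and *Perp*. *Perp*, a desmosome-associated gene downstream of p63, was higher, with 1.61 FPKM in control and 3.56 FPKM in mutant lungs (log2 difference 1.15). *Icam1*, an adhesion molecule, was lower, with 5.13 and 2.33 FPKM (log2 difference -1.14). Of the 50-base stretches of *Icam1*, 18.6% also occur in transcripts of *Gm47079*. *Sfn*, which encodes 14-3-3 sigma, had 1.40 and 2.24 FPKM (log2 difference 0.68). The undetected genes *Krt17*, *Itgb4*, *Aqp3*, *Dapl1* and *Dsg3* had at most 0.548 FPKM, and *Dsg3* was listed at 0 in both genotypes.

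*Krt5*, *Krt14* and *Trp63* also mark skin and oesophagus. A list of 16 squamous and oesophageal genes summed to 9.09 FPKM in control and 12.6 FPKM in mutant lungs. Of these, 7 were listed at 0 in both genotypes, among them the suprabasal keratin *Krt4*, *Krt6a* and *Krtdap*, and 5 were detected. The most abundant were *Krt10* (3.74 and 3.66 FPKM), *Lor* (1.77 and 3.38 FPKM) and *Barx1* (2.31 and 1.83 FPKM). Whether cells of such an epithelium took part in the values of *Krt14* was not tested.

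Club cell markers were not detected. *Scgb1a1*, the major secretory protein gene of mature club cells on chromosome 19 (9083642 to 9087956), was listed at 0 in both genotypes. *Scgb3a2*, an early secretoglobin of the airway on chromosome 18 (43764327 to 43767399), was listed at 0.232 FPKM in control and at 0.141 FPKM in mutant lungs. *Cyp2f2*, a cytochrome P450 of club cells on chromosome 7 (27119955 to 27133660), was listed at 0.0204 FPKM in control lungs and at 0 in mutant lungs. With no depth per library, a value of 0 gives no upper limit on the level.

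*Scgb3a2* was nevertheless the one secretoglobin with any signal. Of 21 secretoglobin loci, 20 were listed at 0 in both genotypes, and 20.6% of all loci were listed so. Of 51 loci of the Cyp2 family, 29 were at 0 in both genotypes and 2 were detected, *Cyp2d22* and *Cyp2j6*, at between 3.61 and 5.04 FPKM.

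In a wider list of 13 club cell genes, 3 were detected. *Aldh1a7*, an aldehyde dehydrogenase gene, was lower, with 20.6 FPKM in control and 4.17 FPKM in mutant lungs (log2 difference -2.31). Of its 50-base stretches, 7.49% also occur in *Aldh1a1*, so part of its value may have come from that gene. *Ces1d*, a carboxylesterase gene, had 7.37 and 7.84 FPKM. *Selenbp1* shares its locus with *Selenbp2*, and the joint value was 26.1 and 31.4 FPKM. None of the other 10 exceeded 0.232 FPKM, which was the control value of *Scgb3a2*. The club cell proteins proper thus had no detected transcript, while these enzymes are expressed in other tissues too.

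The ciliated cell regulator *Foxj1* was undetected and its values were close together. *Foxj1*, a forkhead factor needed for motile cilia, lies on chromosome 11 (116330704 to 116335354) and was listed at 0.275 FPKM in control and at 0.268 FPKM in mutant lungs. Its relatives *Foxj2* and *Foxj3*, which are widely expressed, had 5.37 and 5.51 FPKM and 17.3 and 17.5 FPKM.

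Upstream of *Foxj1* and beside it, the multiciliation regulators *Mcidas*, *Gmnc* and *Deup1* had at most 0.0912 FPKM. *Ccno*, a cyclin-like gene needed to multiply centrioles in multiciliated cells, was an exception in control lungs. It was listed at 1.70 FPKM in control and 0.276 FPKM in mutant lungs, 6.15-fold lower (log2 difference -2.62), and was the one gene of the ciliated list past 2-fold. Of all loci with a higher value between 1 and 3 FPKM, 5.11% were at least 2-fold lower. *Ccno* was detected only through the control value, so its direction was given by the filter. *Myb*, which also acts early in multiciliated cells and is expressed in blood progenitors, had 1.24 and 0.945 FPKM.

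Of 27 ciliated cell genes in all, 10 were detected, 6 lower and 4 higher in mutant lungs, with a median log2 difference of -0.09. *Rfx2* and *Rfx3*, transcription factors of ciliary genes, had 2.16 and 2.48 FPKM and 3.89 and 3.99 FPKM. *Tekt1*, which encodes a protein of the axoneme, had 3.93 and 2.53 FPKM, and *Tppp3*, a tubulin-binding gene, had 7.74 and 4.43 FPKM. *Ccdc39* and *Ccdc40*, needed to assemble the inner arms of motile axonemes, had 1.73 and 1.56 FPKM and 1.31 and 1.46 FPKM. *Rsph1*, a radial spoke gene, had 0.645 and 1.23 FPKM (log2 difference 0.93). *Tubb4b*, a tubulin of most cells, had 210.3 and 204.4 FPKM. The other 17 genes, among them the dynein genes *Dnah5*, *Dnah9* and *Dnah11*, had at most 0.672 FPKM.

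**Figure D2:**
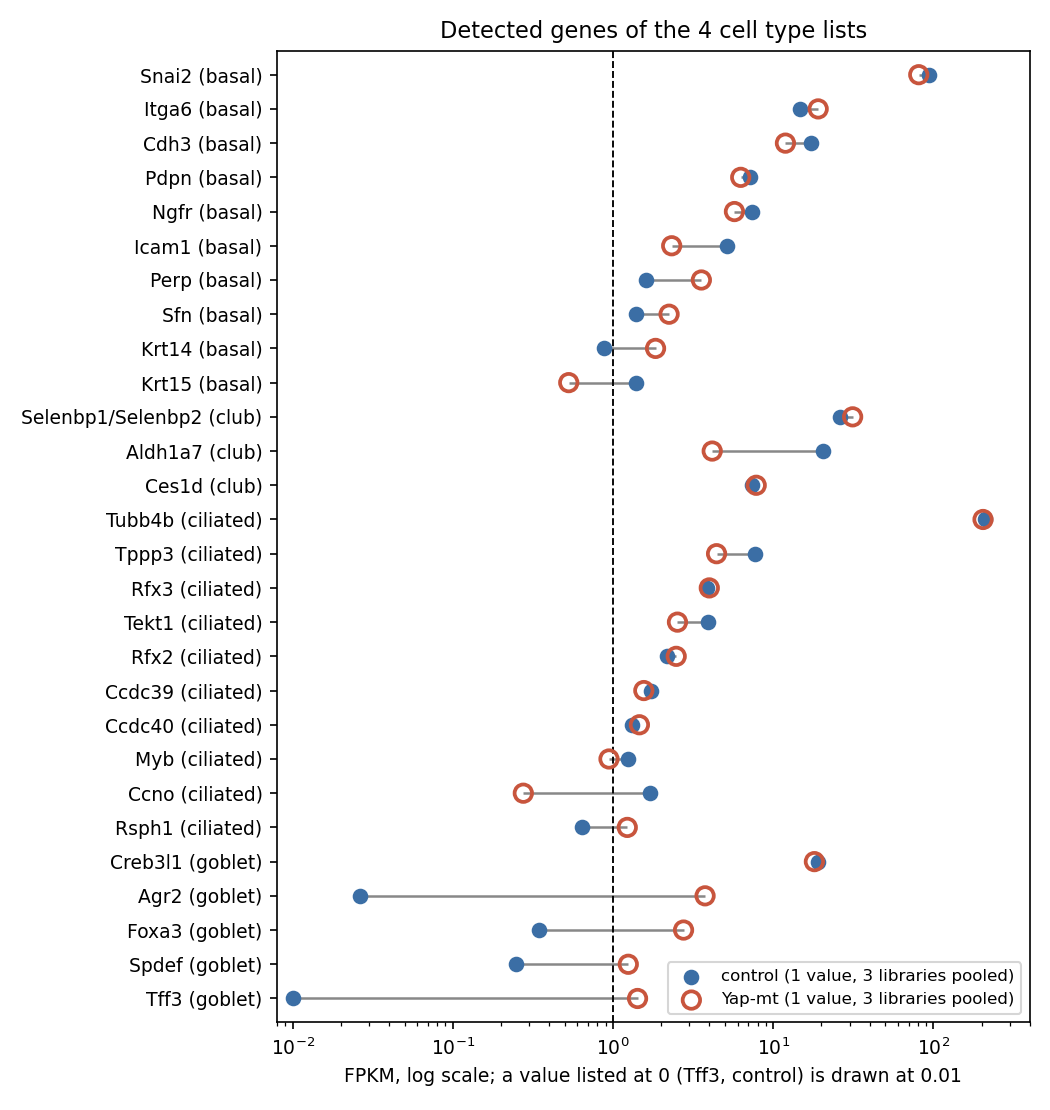
FPKM of every detected gene of the basal, club, ciliated and goblet lists on a log axis, with 1 value per genotype (filled, control; open, *Yap* mutant) and a dashed line at 1 FPKM. *Aldh1a7* and *Ccno* lie far lower in mutant lungs. *Agr2*, *Foxa3*, *Spdef* and *Tff3* lie under 1 FPKM in control and between 1.25 and 3.76 FPKM in mutant lungs.

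The goblet cell regulators had the widest differences among the 10 genes, both higher in mutant lungs. *Spdef*, an ETS factor that drives goblet cell differentiation in airway and gut, lies on chromosome 17 (27714447 to 27728951). It was listed at 0.248 FPKM in control and at 1.25 FPKM in mutant lungs, a ratio of 5.03 and a log2 difference of 2.33. *Foxa3*, a forkhead factor of goblet cells that is also expressed in embryonic gut and liver, lies on chromosome 7 (19013283 to 19023592). It was listed at 0.348 FPKM in control and at 2.76 FPKM in mutant lungs, a ratio of 7.93 and a log2 difference of 2.99. In rank, *Foxa3* was above 39.8% of all loci in control and 55.3% in mutant lungs, and *Spdef* above 37.8% and 49.3%. No other locus of either gene was in the table, and their transcripts share no 50-base stretch with those of other genes. With 1 FPKM added to both values the log2 differences were 0.85 for *Spdef* and 1.48 for *Foxa3*.

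YAP acts on genes through DNA-binding factors of the TEAD family, and the 250 bases before 1 RefSeq transcript start of each of these 2 genes (GRCm38.p6, minus strand in both) are therefore shown. Capitals mark the TATA box letters TATAAA, searched on both strands like the letters named below.
Spdef, chr17:27728952-27729201: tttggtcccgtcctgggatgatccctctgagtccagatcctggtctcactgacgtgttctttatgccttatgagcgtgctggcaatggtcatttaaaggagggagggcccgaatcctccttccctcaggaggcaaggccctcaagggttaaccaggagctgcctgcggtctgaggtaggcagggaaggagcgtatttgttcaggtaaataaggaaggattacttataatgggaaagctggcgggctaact
Foxa3, chr7:19023540-19023789: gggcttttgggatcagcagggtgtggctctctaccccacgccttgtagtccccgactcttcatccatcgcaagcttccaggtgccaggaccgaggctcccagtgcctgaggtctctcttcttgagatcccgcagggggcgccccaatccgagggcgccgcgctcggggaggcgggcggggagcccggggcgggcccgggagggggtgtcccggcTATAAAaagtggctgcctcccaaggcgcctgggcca
The *Foxa3* window holds TATAAA once, 36 bases before the start, and 12.4% of 32851 such windows hold it on either strand. The letters GGAATG of a TEAD site occur in neither window and in 12.6% of all windows. The paper searched a longer stretch before the start and also mapped where YAP binds. Sites outside these windows were not looked for here. The letters TGTTTAC, the core bound by FoxA factors, occur in neither window and in 3.17% of all. GC content was 68.8% in the *Foxa3* window and 52.8% in that of *Spdef*, against a median of 52.4%. The *Spdef* window ends at the edge of the deposited locus but lies inside the RefSeq gene, which reaches on to 27731003, and the bases before that farther end were not searched. The RefSeq start of *Foxa3* lies inside the deposited locus, so the end of its window overlaps that locus. Of the 10 genes 5 matched the promoter table. *Krt5* and *Cyp2f2* had no match to any of these letters, and that of *Krt14* held GGAATG once, 66 bases before its start. The *Krt14* window is not shown, since it lies 1479 bases inside the deposited locus, away from its upstream edge.

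Genes that act with or downstream of *Spdef* and *Foxa3* were partly detected. *Agr2*, a protein disulphide isomerase needed to make mucins, was listed at 0.0263 FPKM in control and 3.76 FPKM in mutant lungs. *Tff3*, a trefoil peptide gene, was listed at 0 in control and at 1.42 FPKM in mutant lungs, so no ratio is given. *Creb3l1*, a transcription factor of secretory cells that is also active in connective tissue, had 19.1 and 18.1 FPKM. Of 12 goblet cell genes, 5 were detected. Of the 4 with a ratio, 3 were at least 2-fold higher, beside 2.74% of all loci with a ratio, and 1 was lower. The 3 higher genes, *Spdef*, *Foxa3* and *Agr2*, were under 1 FPKM in control and were detected only through the mutant value. Their direction was thus given by the filter, and their count supports nothing beyond their values. The airway mucin genes *Muc5ac* and *Muc5b* had at most 0.0387 FPKM in either genotype. The goblet cell chloride channel regulator now called *Clca1*, which the table lists under its older symbol *Clca3*, had 0.00559 and 0.0968 FPKM. The regulators and *Agr2* were thus higher in mutant lungs with no detected gel-forming mucin of the airway.

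*Spdef*, *Foxa3*, *Agr2* and *Tff3* are also expressed in stomach, intestine or liver, and lists of genes of those organs are given beside them. A list of 12 stomach and intestine genes summed to 13.3 FPKM in control and 23.6 FPKM in mutant lungs. Most of both sums came from *Gata4*, a gene of heart and foregut (10.8 and 19.97 FPKM). The 2 detected genes were *Gata4*, which was higher, and *Barx1*, which was lower, both within 2-fold. The list's defining genes were under 1 FPKM in both genotypes, with 0.0266 and 0.809 FPKM for *Pdx1*, a factor of duodenum and pancreas. *Cdx2*, the intestinal homeobox factor, was listed at 0 in control and 0.410 FPKM in mutant lungs, and *Gkn2*, a gastric gene, at 0 and 0.264 FPKM. The gastric mucus gene *Tff2* was listed at 0 in both genotypes. The remaining genes, *Cdx1*, *Hnf4g*, *Gkn1*, *Muc6*, *Muc2* and *Vil1*, had at most 0.123 FPKM in either genotype.

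A list of 13 liver and yolk sac genes summed to 14.6 FPKM in control and 61.1 FPKM in mutant lungs. Of its 5 detected genes 4 were at least 2-fold higher, beside 2.74% of all loci with a ratio. They were led by *Afp* (5.42 and 22.3 FPKM), *Trf* (4.92 and 19.2 FPKM) and *Ttr* (0.492 and 13.5 FPKM). *Ttr* was detected only through the mutant value, so its direction was given by the filter. *Alb*, the albumin gene of liver cells, had 1.28 and 1.14 FPKM, and *Hnf4a* had 0.0328 and 0.215 FPKM. The part of cells from these organs in the values of *Spdef* and *Foxa3* was not tested.

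**Figure D3:**
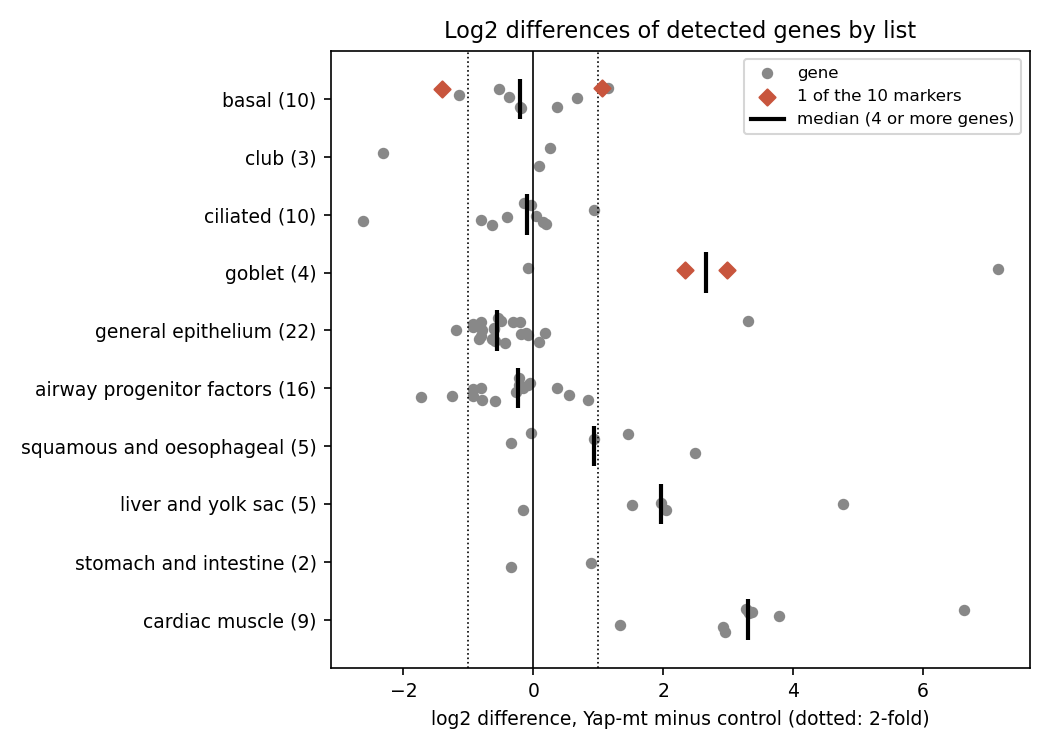
Log2 difference, *Yap* mutant minus control, of each detected gene with a value above 0 in both genotypes, by list, with the number of genes in brackets. Diamonds are the detected markers among the 10, bars are medians of lists with 4 or more genes, and dotted lines are 2-fold. All heart muscle genes lie to the right of 0. The medians of the goblet, squamous and liver lists also lie to the right, each list with genes on both sides. The general epithelial list lies to the left of 0 with the exception of 3 genes. The goblet genes at the right were detected only through the mutant value.

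*Foxa3* differed in direction from its closest relatives, and *Spdef* did so from 1 of 3. Both *Foxa3* and *Spdef* reached 1 FPKM in mutant lungs only, so their own direction was given by the filter. The other FoxA genes, which pattern the lung endoderm, were lower in mutant lungs, with 23.7 and 13.5 FPKM for *Foxa1* and 19.6 and 10.3 FPKM for *Foxa2*. *Foxa3* was thus a small part of the summed FoxA level in both genotypes. Among the epithelial ETS genes, *Elf3* was lower (2.29 and 1.204 FPKM). *Ehf* and *Elf5*, named after their values were seen, were higher like *Spdef*, with 0.125 and 1.24 FPKM for *Ehf* and 1.11 and 4.14 FPKM for *Elf5*. *Ehf*, too, was detected only through the mutant value.

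In a list of airway progenitor factors 16 of 16 genes were detected, beside 53.5% of all loci. Of these, 13 were lower and 3 higher in mutant lungs, with a median log2 difference of -0.24. Detection in whole-lung RNA does not place these genes in airway progenitors. *Sox2*, the factor of proximal airway progenitors, was lower in mutant lungs, with 9.65 FPKM in control and 2.91 FPKM in mutant lungs (log2 difference -1.73). *Sox9*, the factor of distal progenitors that is also made in cartilage, had 23.7 and 20.4 FPKM (log2 difference -0.22). *Etv5*, an FGF-responsive ETS gene of the distal tips, had 86.9 and 36.3 FPKM (log2 difference -1.26), and *Id2* had 117.7 and 211.0 FPKM.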

How the data were processed

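Lung RNA of 3 wild-type and 3 *Yap* mutant libraries was sequenced by the authors from stranded paired-end libraries. The submitters' processing notes name TopHat, Cuffdiff and mm10, without versions. The deposited FPKM are the authors' values, 1 per genotype, in a table of 24402 loci and in a subset of 2395 loci. The header does not name the unit, which was read from the Cuffdiff layout. The authors' own fold changes and p-values are also in the tables and were not used. The 4 detected members had identical values in both tables.

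Log2 differences are ratios of the deposited FPKM with no pseudocount, for loci with 1 FPKM or more in at least 1 genotype and above 0 in both, and 22 loci at 0 in 1 genotype were left out of the ratios. List genes were matched by symbol or RefSeq synonym where the locus overlapped the RefSeq gene on GRCm38, the same build as mm10. Starts were raised by 1, since 9308 then equalled the RefSeq start. Shared stretches of 50 bases were counted in GENCODE M21 transcripts, on both strands. Members and lists were chosen with earlier results of these data known. Named were the 10 members, detected genes of the basal, club, ciliated and goblet lists, the 3 most abundant genes of each other list, *Sox2*, *Sox9*, *Yap1* and 4 Y-linked genes. Other genes named were chosen after their values were seen. The calculation of the ratio and of the 2-fold call was run on simulated loci with known shifts. That run checks the calculation only, and not how reliable a 2-fold call is at low FPKM. Python 3.11.15, numpy 2.4.6, pandas 2.3.3 and matplotlib 3.10.9 were used.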

Additional observations from a re-analysis of the deposited data

How the results depend on the processing

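No paired analysis was possible because each genotype has 1 value, and for the same reason no library could be left out. Detected markers numbered 8 at 0.1 FPKM, 1 at 2 FPKM and 0 when both genotypes had to reach 1 FPKM. With 0.1 FPKM added, *Krt14* was at 0.98, and with 1 FPKM added *Krt14* was at 0.59, *Krt15* at -0.65 and *Spdef* at 0.85 on the log2 scale. *Krt15* was at -0.84 relative to the general epithelial median. Accordingly 0 markers were 2-fold lower with a mean of at least 1 FPKM, with 1 FPKM added, or relative to that median. On the higher side, 1 (*Foxa3*) was past 2-fold with 1 FPKM added. With a mean of at least 1 FPKM, 2 (*Krt14* and *Foxa3*) were, and *Spdef* was left out by that filter. Over all loci, 579 were past 2-fold (357 higher, 222 lower). They numbered 1220 at 1.5-fold, 2066 with no filter, 318 with 1 FPKM added, and 1104 (1006 higher, 98 lower) relative to the epithelial median. The goblet median of 2.66 was 1.28 with 1 FPKM added, 3.54 without *Spdef* and *Foxa3*, and -0.079 at a mean of at least 5 FPKM, where *Creb3l1* alone is left. That median takes in *Spdef*, *Foxa3* and *Agr2*, which reached 1 FPKM in mutant lungs only. The medians of the other lists with 4 or more detected genes kept their sign, among them -0.42 for ciliated genes (mean of at least 5 FPKM) and 0.45 for squamous genes (mean of at least 1 FPKM). Depth per library is unknown, so counting error at these low values could not be given.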

Other observations

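Of the 10 mucin loci in the table, the membrane mucin *Muc1* was the one detected. It was listed at 2.04 FPKM in control and 0.587 FPKM in mutant lungs, 3.48-fold lower (log2 difference -1.80). It reached 1 FPKM in control lungs only, so its direction was given by the filter. *Sftpc*, a gene of the distal epithelium, was listed at 28.4 and 55.8 FPKM (log2 difference 0.97), with *Nkx2-1* and *Epcam* lower. In the squamous list, the homeobox gene *Pitx1* was higher in mutant lungs (0.276 and 1.56 FPKM, log2 difference 2.50). *Pitx1* reached 1 FPKM in mutant lungs only, so its direction was also given by the filter. These genes were chosen after their values were seen, and none of these differences has a replicate check.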
